A study of Homo sapiens with 4 samples.

Results

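The outermost 5 Mb of each chromosome arm were followed through lamin B1 maps of 2 human prostate cancer cell lines, LNCaP and VCaP. An arm end comprised the 40 kb bins with a value in both lines that end within the last 5 Mb of a chromosome (q end) or start in its first 5 Mb (p end). The short arms of the 5 acrocentric chromosomes (13, 14, 15, 21 and 22) were left out. This gave 39 arm ends, 17 p ends and 22 q ends, with 117 to 125 bins each and 4790 bins in all, of 67170 autosomal bins of that width and 71569 entries with a value in both lines. The labels give LNCaP as prostate adenocarcinoma and VCaP as bone-metastatic prostate cancer, and both are established lines. Both were grown in serum-containing medium, fixed with formaldehyde and taken through chromatin immunoprecipitation and sequencing (ChIP-seq) with a lamin B1 antibody, and each line has 1 lamin B1 library and 1 input library without antibody. With 1 library per group nothing could be tested against replicates, so every comparison below describes these libraries. The values are log2 enrichment of lamin B1 over the input of the same line, in hg19, and the read depth behind them is unknown.

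Lamin B1 is a filament protein of the nuclear lamina, the mesh that lines the inside of the nuclear envelope. Chromatin that touches this mesh is on the whole gene-poor, late replicating and little transcribed, and it is organised in long lamina-associated domains. The ends of human chromosomes are a mixed landscape: many are GC-rich and dense in genes, others are gene-poor, and nearly all finish in repeats and segmental duplications shared between chromosomes. Genes are named below by their textbook cytogenetic place only, because the gene table at hand is of another genome build. No DNA sequence of an arm end in hg19 was analysed here.

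Arm ends were strongly lamin-enriched in VCaP and only slightly so in LNCaP. The median log2 enrichment of the arm-end bins was 0.64 in VCaP (interquartile range 0.35 to 0.89), against 0.16 (-0.13 to 0.46) in the other autosomal bins of the same library. In LNCaP the arm-end median was 0.14 (-0.09 to 0.36), against 0.05 (-0.16 to 0.30) elsewhere. The deposited hidden Markov model gives each bin 1 of 2 states, and the state with the higher mean enrichment is called associated here. In VCaP 3975 of the 4790 arm-end bins (83.0%) were associated, where 44.0% of all autosomal bins were. In LNCaP 2269 arm-end bins (47.4%) were associated, where 37.4% of all autosomal bins were. The enrichment of arm ends over the remaining genome was thus far larger in VCaP than in LNCaP.

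**Figure D1:**
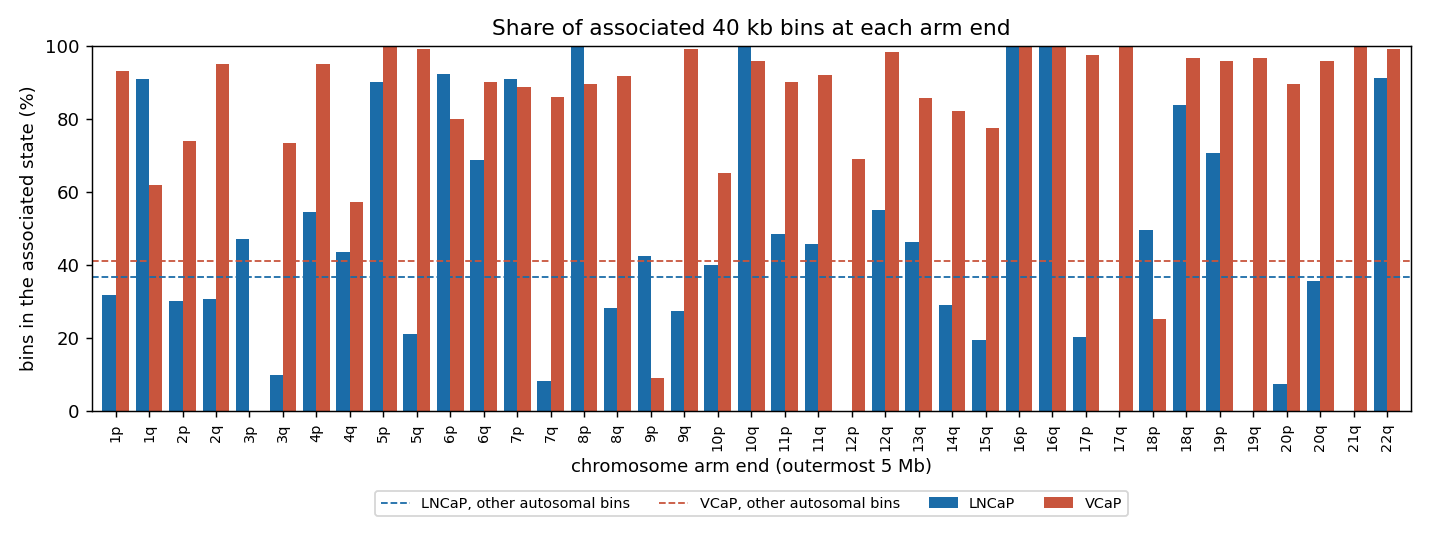
Share of 40 kb bins in the associated state (%, vertical axis) at each of the 39 arm ends (horizontal axis), with 1 bar per line and dashed lines for the autosomal bins outside the arm ends. VCaP reaches at least 90% at 22 arm ends and LNCaP at 9, and the 3p end has no associated bin in VCaP.

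The contrast was spread over most arms. At least 90% of bins were associated at 22 of the 39 arm ends in VCaP and at 9 in LNCaP. Windows of 5 Mb tiled over the rest of the autosomes reached this share in 7.69% of 481 windows in VCaP and in 4.16% in LNCaP. The median of an arm end was higher in VCaP at 36 of 39 arm ends. Over all 39 the median difference was 0.54 log2 units (interquartile range 0.29 to 0.76). By associated share VCaP was higher at 29 arm ends and LNCaP at 8, and the lines were equal at 2. The direction by associated share was not counted over the windows of the rest of the autosomes. Of the interior windows 56.8% were higher in VCaP, and the median difference over all 481 was 0.06. A difference of medians over 0.5 was seen at 21 arm ends and in 13.1% of interior windows.

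Single bins gave the same picture against the variation between nearby bins of the same library, called noise here. Such noise can include real local differences and holds no variation between libraries. The noise of a bin was taken from bins 3 apart, which share no averaged entry, and had an SD of 0.15 in LNCaP and 0.22 in VCaP, so that a difference over 0.54 (1.45-fold) lay past 2 noise SD. VCaP was higher by more than this in 2186 arm-end bins (45.6%), where 19.4% of all autosomal bins were. LNCaP was higher by more than this in 117 arm-end bins (2.44%), where 8.05% of all autosomal bins were. The autosomal median itself lay 0.13 higher in VCaP. With each line centred on its own autosomal median, VCaP was still higher at 33 of the 39 arm ends, and the median difference of arm-end bins was 0.35 in place of 0.48.

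**Figure D2:**
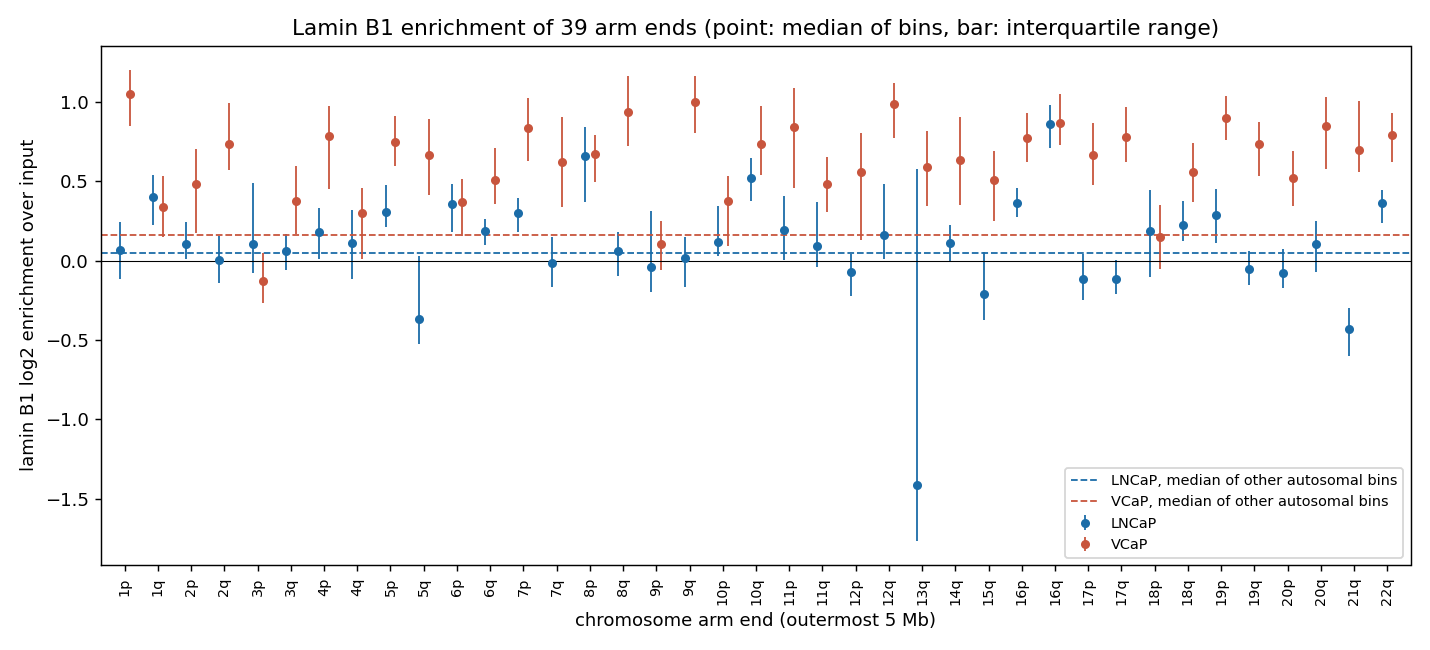
Median lamin B1 log2 enrichment over input (vertical axis) of each arm end (horizontal axis) in LNCaP and VCaP, with bars for the interquartile range of its bins and dashed lines for the median of the other autosomal bins of each line. Most VCaP points lie between 0.4 and 1.0 while most LNCaP points lie between -0.1 and 0.4, and 13q in LNCaP stands far below the rest at -1.41.

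Each arm end was next set against the rest of its own chromosome, which removes differences between whole chromosomes. In VCaP 37 of 39 arm ends had a higher median than the bins of the same chromosome outside its ends. The median excess over all 39 arm ends was 0.41. The exceptions were 3p and 9p. In LNCaP 24 of 39 arm ends were higher, and the median excess over all 39 was 0.03. The excess of the arm end was larger in VCaP at 32 arms, and its median difference between the lines over all 39 was 0.32. Both lines were above the rest of the chromosome at 23 arm ends, VCaP alone at 14, LNCaP alone at 1 (3p) and neither at 1 (9p). On chromosomes 16, 17, 19, 20 and 22 VCaP was also high outside the ends, with medians of 0.53, 0.44, 0.67, 0.39 and 0.65. The 19q end exceeded its chromosome by 0.06, the 22q end by 0.14 and the 20p end by 0.14, although their own medians were 0.74, 0.79 and 0.52.

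The profile from the tip inwards showed where on the arm the enrichment lay. In VCaP the median over the 39 arms was 0.67 in the outermost 1 Mb, 0.73 between 1 and 2 Mb from the tip, and 0.59 between 4 and 5 Mb. Past the limit of the arm end it fell further but unevenly. It was 0.43 between 9 and 10 Mb, 0.43 between 13 and 14 Mb and 0.34 between 14 and 15 Mb. The associated share in VCaP went from 89.4% between 1 and 2 Mb to 59.5% between 9 and 10 Mb. It was higher again between 10 and 11 Mb (67.7%) and between 13 and 14 Mb (67.1%). Between 14 and 15 Mb it was 55.3%, still above the 41.0% of the autosomal bins outside the arm ends.

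LNCaP had no such slope. Its median over the arms was 0.01 in the outermost 1 Mb, 0.21 between 1 and 2 Mb, 0.10 between 4 and 5 Mb and 0.10 between 14 and 15 Mb. The associated share in LNCaP was lowest in the outermost 1 Mb, at 34.2%, and highest between 2 and 3 Mb, at 57.7%. The outermost 1 Mb lay below the next 1 Mb at 27 of 39 arms in LNCaP and at 25 in VCaP. Because each deposited value averages its own entry and the 2 before it, the outermost bins of p and q ends are not smoothed in the same direction. The arm end was higher than the zone from 5 to 10 Mb at 31 arms in VCaP and at 19 in LNCaP. The median difference from that zone over all 39 arms was 0.13 in VCaP and -0.0029 in LNCaP.

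**Figure D3:**
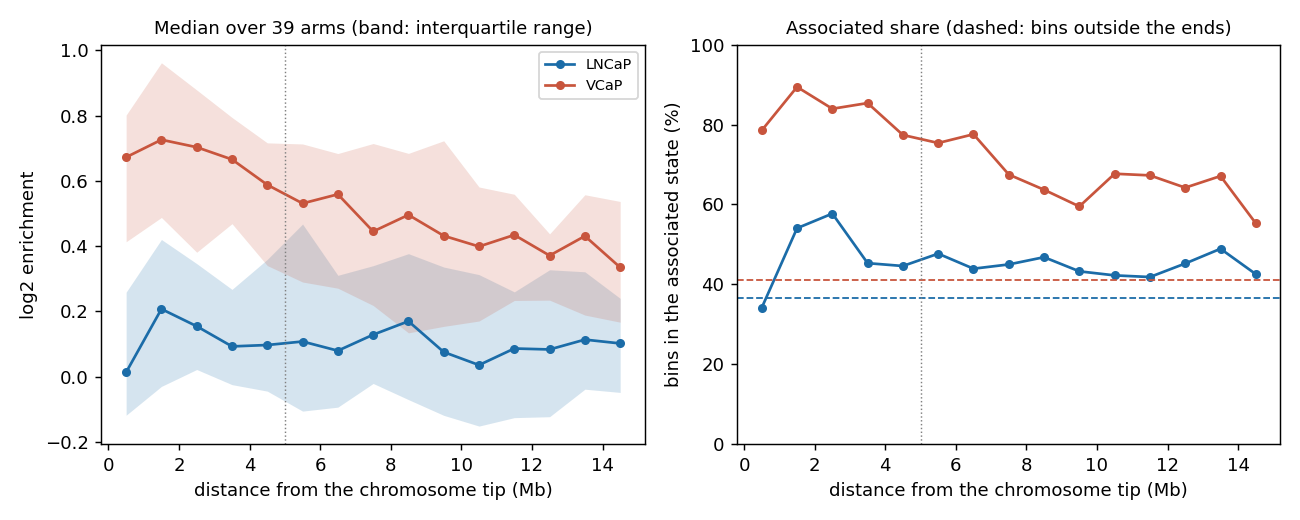
Lamin B1 enrichment against distance from the chromosome tip (horizontal axis, Mb), as the median over 39 arms of each 1 Mb step with the interquartile range over arms as a band (left, log2) and as the share of associated bins (right, %). VCaP falls unevenly from 0.73 between 1 and 2 Mb to 0.34 between 14 and 15 Mb, whereas LNCaP stays between 0.01 and 0.21.

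A small set of arm ends was highly enriched in both lines. The 16q end (chromosome 16 from 85320001 to 90280000) was the highest in LNCaP, with a median of 0.86, and had 0.87 in VCaP. All 124 of its bins were associated in each line. This end carries TUBB3, a neuronal beta-tubulin, MC1R, the melanocortin receptor of pigment cells, and FANCA, a DNA repair gene of the Fanconi anaemia pathway. Its strongest step was the same in both lines, between 1 and 2 Mb from the tip, with 1.13 in LNCaP and 1.21 in VCaP. The 16p end (80001 to 5000000), which carries the alpha-globin genes and CREBBP, a histone acetyltransferase gene, was also associated in all 123 bins of each line. Its medians were 0.36 in LNCaP and 0.78 in VCaP. Both ends belong to a chromosome that was high throughout, with a median of 0.44 in LNCaP and 0.53 in VCaP outside the ends. In LNCaP the 16p end therefore lay 0.08 below the rest of its chromosome, while the 16q end lay 0.42 above it. The difference between the lines at 16q and 8p was 0.01 each and turned negative (-0.13 and -0.12) with centred lines.

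The 8p end (80001 to 5000000) was high in both lines on a chromosome that was not. It carries CSMD1, a very long gene of a complement-regulating membrane protein. Its median was 0.66 in LNCaP and 0.68 in VCaP, against -0.03 and 0.18 in the rest of chromosome 8. All 123 bins were associated in LNCaP and 110 in VCaP. LNCaP rose inwards along this end, from 0.27 in the outermost 1 Mb to 0.86 between 4 and 5 Mb. VCaP peaked earlier, with 0.81 between 1 and 3 Mb in each step and 0.55 between 4 and 5 Mb.

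The 10q end (chromosome 10 from 130520001 to 135480000) had a median of 0.52 in LNCaP and 0.74 in VCaP. It carries CYP2E1, the ethanol-metabolising cytochrome P450. All 124 bins were associated in LNCaP and 119 in VCaP. VCaP fell inwards here, from 1.11 in the outermost 1 Mb to 0.42 between 4 and 5 Mb, and LNCaP went from 0.65 to 0.38. The 22q end (chromosome 22 from 46280001 to 51240000), where SHANK3, a scaffold gene of excitatory synapses, lies, had 0.36 in LNCaP and 0.79 in VCaP. In LNCaP it lay 0.48 above the rest of chromosome 22, where the median was -0.12. The 5p end (80001 to 5000000), home of TERT, the catalytic subunit of telomerase, was associated in all 123 VCaP bins and in 111 LNCaP bins. Its medians were 0.31 in LNCaP and 0.75 in VCaP.

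The largest difference between the lines was that of the 13q end (chromosome 13 from 110160001 to 115120000), with medians of -1.41 in LNCaP and 0.59 in VCaP. The LNCaP median hides a division inside the end. In the outermost 2 steps of 1 Mb LNCaP had 0.59 and 0.53 and VCaP 0.81 and 0.53. All 47 LNCaP bins of these steps were associated. From 2 Mb inwards the LNCaP medians were -1.16, -1.88 and -1.77, and the VCaP medians were 0.82, 0.44 and 0.19. The end carries GAS6, which encodes a ligand of receptor tyrosine kinases, and COL4A1 and COL4A2, which encode basement membrane collagen. In which steps these genes lie was not read. Over the whole end the LNCaP bins had an SD of 1.16, the highest of the 39 arm ends, so its median describes neither part.

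The 21q end (chromosome 21 from 43120001 to 48080000) differed evenly along its length. The median was -0.43 in LNCaP and 0.70 in VCaP, and VCaP was higher past the noise in all 124 bins. No bin was associated in LNCaP, where the highest value was -0.12, and all bins were associated in VCaP, where the lowest value was 0.06. The lines did not overlap anywhere on this end, which carries COL6A1 and COL6A2, collagen VI genes, and S100B, a calcium-binding protein gene of glia. The LNCaP end was close to the rest of chromosome 21 (0.03 lower), whereas the VCaP end lay 0.61 above it.

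The 5q end (chromosome 5 from 175880001 to 180840000) had -0.37 in LNCaP and 0.67 in VCaP. It carries NSD1, a histone methyltransferase gene, and FLT4, the receptor gene of lymphatic endothelium. Of its 124 bins 26 were associated in LNCaP and 123 in VCaP. LNCaP was below -0.3 in every 1 Mb step except that between 2 and 3 Mb, where it reached 0.43, and VCaP was also highest there, at 0.95. The 9q end (chromosome 9 from 136200001 to 141160000), with NOTCH1, a receptor of cell fate decisions, and EHMT1, a histone H3 lysine methyltransferase gene, had 0.01 in LNCaP and 1.00 in VCaP. VCaP was higher past the noise in 123 of its 124 bins, and 34 bins were associated in LNCaP against 123 in VCaP. The 1p end (80001 to 5000000), which carries SKI and PRDM16, both transcriptional regulator genes, had 0.07 in LNCaP and 1.05 in VCaP, the highest VCaP median of the 39. VCaP was higher past the noise in 108 of its 117 bins. The outermost 1 Mb of 1p was lower than the rest of the end in both lines, with -0.24 in LNCaP and 0.44 in VCaP.

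Other ends with the highest VCaP medians were 12q, 8q and 19p. The 12q end (chromosome 12 from 128840001 to 133800000), where POLE, the catalytic subunit of a replicative DNA polymerase, lies, had 0.16 in LNCaP and 0.99 in VCaP. LNCaP went from -0.02 in its outermost 1 Mb to 0.53 between 4 and 5 Mb, and VCaP from 0.85 to 1.24. The 8q end (chromosome 8 from 141360001 to 146320000), with PLEC, a cytoskeletal linker gene, and RECQL4, a DNA helicase gene, had 0.06 in LNCaP and 0.93 in VCaP, and 34 and 111 of its 121 bins were associated. The 19p end (80001 to 5000000), which carries STK11, a kinase gene of energy sensing, had 0.29 in LNCaP and 0.90 in VCaP. Its single bins ran from -2.21 to 0.74 in LNCaP and from -0.72 to 1.39 in VCaP. The VCaP median of every 1 Mb step lay between 0.87 and 1.00. On this end LNCaP had 0.50 and 0.48 in the 2 inner steps, against 0.12 to 0.16 in the outer 3.

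No bin was associated in LNCaP at the ends of 12p, 17q, 19q and 21q, whereas from 69.1% (12p) to all of their bins were associated in VCaP. The 17q end (chromosome 17 from 76160001 to 81120000), home of FASN, the fatty acid synthase gene, had -0.12 in LNCaP and 0.78 in VCaP, and all 124 bins were associated in VCaP. Its LNCaP values were flat, between -0.19 and -0.06 over the 5 steps of 1 Mb. The 19q end (chromosome 19 from 54120001 to 59080000), with the killer-cell and leukocyte immunoglobulin-like receptor genes and many zinc finger genes, had -0.05 in LNCaP and 0.74 in VCaP, and 120 of 124 bins were associated in VCaP. The 12p end (80001 to 5000000), with CACNA1C, a calcium channel gene, and CCND2, a cyclin gene, had -0.07 in LNCaP and 0.56 in VCaP. VCaP was uneven here: the step between 1 and 2 Mb had -0.05 and the others 0.59 to 0.79, and 85 of 123 bins were associated.

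**Figure D4:**
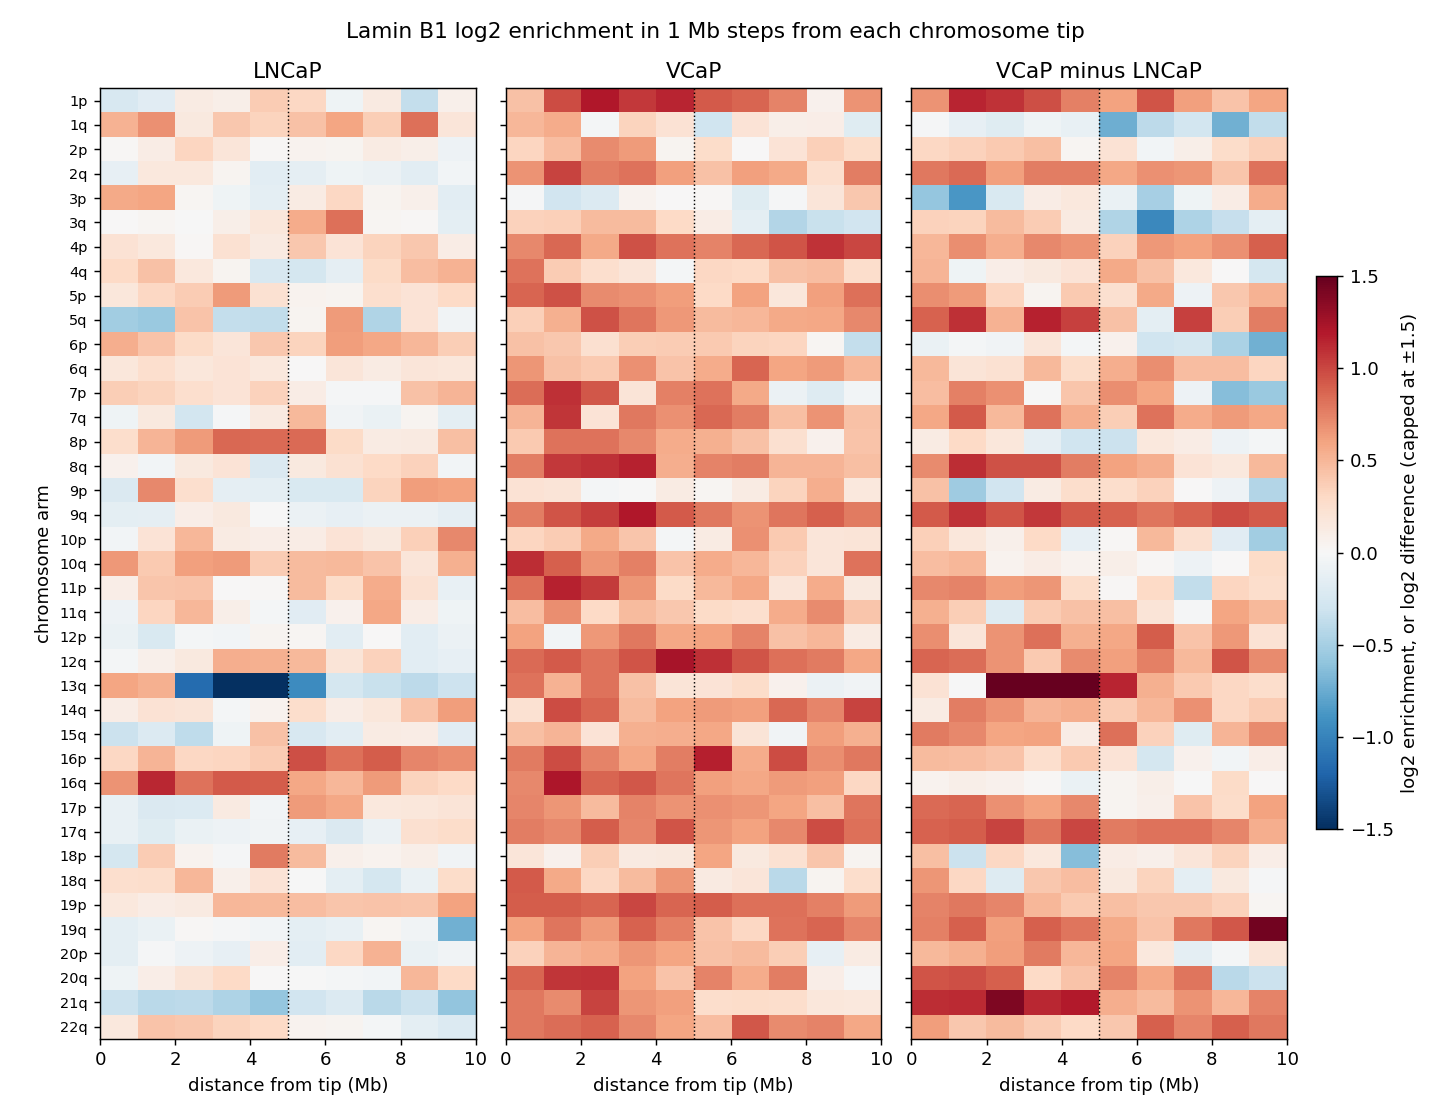
Median log2 enrichment in 1 Mb steps from the chromosome tip (horizontal axis, Mb, dotted line at 5 Mb) for each arm (rows) in LNCaP, in VCaP and as VCaP minus LNCaP, with colours capped at 1.5. The inner 13q steps are the darkest blue in LNCaP, 21q is red along the whole end in the difference, and 3p is blue in its outer steps.

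A few arm ends went against the general pattern. The 3p end (80001 to 5000000) was the only end with a VCaP median below 0, at -0.13, and no bin of it was associated in VCaP. In LNCaP its median was 0.10 and 58 of 123 bins were associated. This end carries CHL1, CNTN4 and CNTN6, neural cell adhesion genes of the immunoglobulin superfamily. The LNCaP enrichment lay in the outer part: the outermost 2 steps of 1 Mb had 0.57 and 0.59 with all 48 bins associated, the next had 0.03 with 10 of 25, and the innermost 2 had -0.07 and -0.15 with 0 associated. VCaP had -0.01 and -0.28 in those outer steps. LNCaP was higher past the noise in 42 bins of this end, of 117 such bins over all arm ends, and VCaP in 1.

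The other 2 ends with a higher LNCaP median were 1q and 18p. The 1q end (chromosome 1 from 244240001 to 249200000), with a large olfactory receptor cluster, had 0.40 in LNCaP and 0.34 in VCaP. Associated bins numbered 110 in LNCaP and 75 in VCaP, of 121, and every VCaP bin in that state was associated in LNCaP too. The 18p end (80001 to 5000000), where TYMS, the thymidylate synthase gene and a drug target, lies, had 0.19 in LNCaP and 0.15 in VCaP. The differences of medians were -0.06 at 1q and -0.04 at 18p, and those of means were -0.12 and -0.04. The median of the differences of single bins was -0.08 at 1q but 0.07 at 18p. The direction at 18p thus depended on the measure. The noise SD of the mean difference was 0.042 at each end. It takes 1 in 3 neighbouring bins as separate and holds no variation between libraries. It therefore does not show how firm these differences are. LNCaP changed strongly along 18p, from -0.27 in the outermost 1 Mb to 0.78 between 4 and 5 Mb, while VCaP was between 0.07 and 0.37 in every step.

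The 9p and 4q ends completed the 5 lowest in VCaP. The 9p end (80001 to 5000000), with DOCK8, an immune cell signalling gene, and DMRT1, a regulator gene of the testis, had -0.04 in LNCaP and 0.11 in VCaP. Only 11 of its 123 bins were associated in VCaP and 52 in LNCaP, and 0 bins were associated in both. The LNCaP bins were concentrated between 1 and 3 Mb from the tip, with medians of 0.72 and 0.26, where VCaP had 0.19 and -0.03. The 4q end (chromosome 4 from 186120001 to 191080000), with FRG1 and the DUX4 repeat array known from facioscapulohumeral muscular dystrophy, had 0.11 in LNCaP and 0.30 in VCaP. Its VCaP profile was the steepest fall from the tip among these 5 ends, from 0.81 in the outermost 1 Mb to -0.03 between 4 and 5 Mb. In LNCaP the same steps went from 0.30 to -0.24, so that both lines fell in the same direction.

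The other arm ends are given mainly by their medians. On 6p, with FOXC1 and IRF4, transcription factor genes of eye development and of lymphocytes, the lines were level, with 0.36 in LNCaP and 0.37 in VCaP. On 6q, with DLL1, a Notch ligand gene, they had 0.19 and 0.51. On 2p, with MYT1L, a neuronal transcription factor gene, LNCaP had 0.11 and VCaP 0.48. On 2q, with HDAC4, a histone deacetylase gene, LNCaP had 0.00 and VCaP 0.74. On 3q, with TFRC, the transferrin receptor gene, the values were 0.06 and 0.38. On 4p, with FGFR3, a growth factor receptor gene, and HTT, the huntingtin gene, they were 0.18 and 0.79. These 6 ends had a lower LNCaP median by 0.02 to 0.73, but that of 6p turned the other way (-0.12) when each line was centred on its autosomal median.

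On 7p, with PDGFA, a growth factor gene, the medians were 0.30 in LNCaP and 0.84 in VCaP. The 7q end, with SHH, the sonic hedgehog gene, had -0.01 and 0.62, and 10 of its 122 bins were associated in LNCaP against 105 in VCaP. For 10p, with ADARB2, a gene of the RNA-editing enzyme family, the values were 0.12 and 0.38. The 11p end, which holds the imprinted IGF2 and H19 genes, had 0.19 in LNCaP and 0.84 in VCaP. Of the 5 steps inside the 11p end, those between 1 and 3 Mb were the highest in both lines, with 0.41 and 0.43 in LNCaP and 1.15 and 1.05 in VCaP. For 11q, with JAM3, a junctional adhesion gene, the medians were 0.09 and 0.48.

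The 14q end, where the immunoglobulin heavy chain locus lies, had 0.11 in LNCaP and 0.64 in VCaP. Its outermost 1 Mb was the lowest step in VCaP, at 0.23. The 15q end (chromosome 15 from 97520001 to 102480000), with IGF1R, the insulin-like growth factor receptor gene, was among the 5 lowest in LNCaP, at -0.21, and had 0.51 in VCaP. Of its 124 bins 24 were associated in LNCaP and 96 in VCaP. Between 4 and 5 Mb from its tip LNCaP had 0.44, the only 1 of the 5 steps of this end above 0 in that line. The 17p end, with YWHAE and PAFAH1B1, genes of neuronal migration, had -0.11 and 0.66, and 25 of 123 bins were associated in LNCaP against 120 in VCaP. For 18q, with NFATC1, a transcription factor gene of calcium signalling, the medians were 0.23 and 0.56. The 20p end, with a beta-defensin cluster and PRNP, the prion protein gene, had -0.08 and 0.52. The 20q end, with CHRNA4, a nicotinic receptor gene, and EEF1A2, an elongation factor gene, had 0.11 and 0.85.

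The state of each arm-end bin was also counted in both lines together. Of the arm-end bins associated in LNCaP 88.4% were associated in VCaP too, beside 83.0% of all arm-end bins. Both lines were associated in 2006 arm-end bins (41.9%), where 20.1% of all autosomal bins were. VCaP alone was associated in 1969 bins (41.1%, where 23.9% of all autosomal bins were). LNCaP alone was associated in 263 bins (5.49%, where 17.3% were), and neither line in 552 bins (11.5%, where 38.7% were). The LNCaP-only bins came mostly from 3p with 58, 9p with 52, 18p with 40, 1q with 35 and 6p with 21. At 16p, 16q, 17q and 21q every bin had 1 and the same pair of states.

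Chromosomes with both ends in the set allowed p and q ends to be set side by side. Over the bins of all p ends the median was 0.18 in LNCaP and 0.58 in VCaP, and over those of all q ends it was 0.11 and 0.67. The associated share was 53.8% at p ends and 42.4% at q ends in LNCaP, and 74.1% and 89.8% in VCaP. Within the 17 chromosomes the q end was higher on 7 in LNCaP and on 11 in VCaP. Ends of the same chromosome could differ widely. On chromosome 9 the VCaP q end lay 0.89 above the p end while the LNCaP ends differed by 0.05, and on chromosome 1 the VCaP q end lay 0.71 below the p end while in LNCaP it lay 0.34 above it. On chromosome 10 the q end was higher in both lines, by 0.40 in LNCaP and 0.36 in VCaP.

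Which arm ends were high was hardly shared between the lines. Across the 39 medians Pearson's r was 0.09 and Spearman's rho 0.13, and without 13q r was 0.10. These correlations are descriptions, since all values of a line come from the same pair of libraries. Across the 481 interior windows r was 0.07. Along the bins of a single arm end the lines followed each other more closely, with a median within-arm r of 0.53 and a positive r at 37 of 39 arm ends. The highest was 0.79 on 19p, and the negative ones were -0.17 on 3p and -0.09 on 5p. Within-window r was not computed for interior windows. Pooled over all arm-end bins r was 0.27, against 0.28 over the other autosomal bins. The order of arms and the order of bins within an arm therefore gave different degrees of likeness, and bins of 1 arm share averaged entries.

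**Figure D5:**
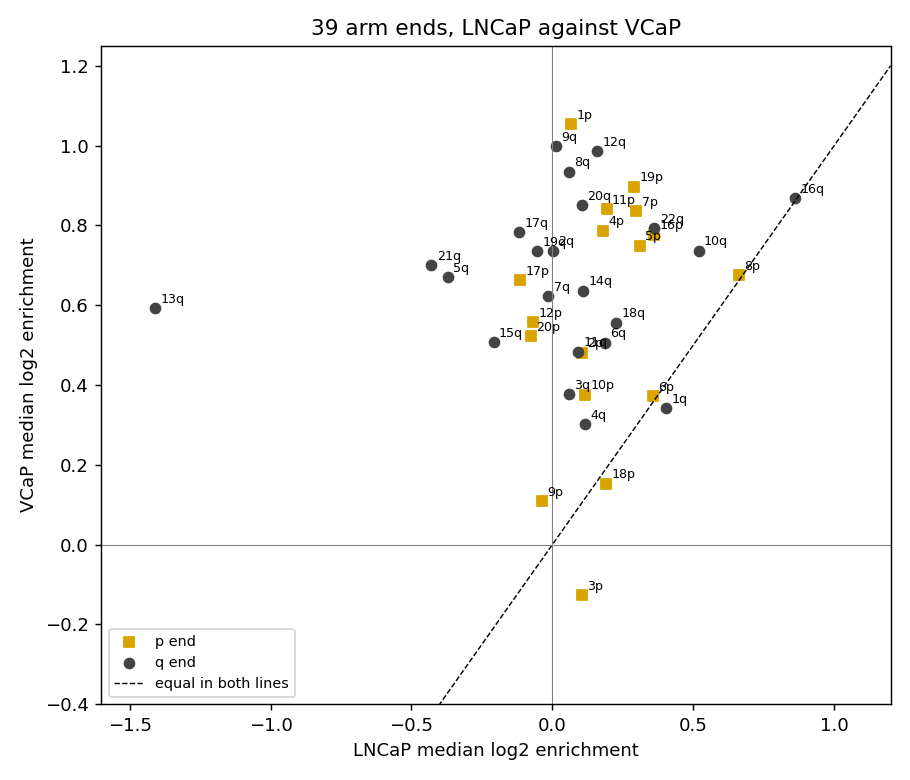
VCaP median log2 enrichment (vertical axis) against LNCaP median log2 enrichment (horizontal axis) of the 39 arm ends, with squares for p ends, circles for q ends and a dashed line of equal values. Of the points 36 lie above the line, 3p, 1q and 18p lie below it, and 13q lies far to the left at -1.41.

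The states at arm ends formed long runs. There were 2.09 state borders per 100 arm-end bins in LNCaP and 2.13 in VCaP, against 2.61 and 3.29 in the other autosomal bins. No border at all was present within 8 arm ends in LNCaP and 6 in VCaP. The outermost entry with a state was associated at 8 arm ends in LNCaP and at 21 in VCaP. Entries left out of the arm-end bins, such as those of another width, count here, so a run can be missing beside associated bins. At 10q LNCaP had a run of 0 Mb although all 124 bins were associated. At 9q VCaP had a run of 0 Mb with 123 of 124 bins associated. An unbroken associated run from that entry reached at least 1 Mb at 7 arm ends in LNCaP and 15 in VCaP. The longest was that of 16p, with 11.8 Mb in both lines, and on 17q the VCaP run measured 10.9 Mb where LNCaP had none.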

How the data were processed

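Per the labels, lamin B1 ChIP and input DNA of LNCaP and VCaP were sequenced, with 1 library per group (4 libraries in all). The submitters' processing notes name STAR and hg19; the scaling, filters and smoothing are not given in the sources used here. The authors deposited log2 enrichment of ChIP over input, mostly in 40 kb entries, and a hidden Markov model state per entry. The 2 tables per line were joined by position, counted from 1. Of 4851 entries of the end windows, 32 had no value in a line and 29 had another width, which left 4790.

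Deposited values were taken as trailing means over 3 consecutive entries. Undoing that mean brought the median absolute value of entries over 40 kb wide from 0.21 to 0.0055 in LNCaP and from 0.33 to 0.0067 in VCaP. Noise is the median absolute difference of bins 3 apart, scaled by 1.4826 and divided by the square root of 2, and that of a difference combines both lines. No test was possible. Read depth is unknown.

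Arm ends described in full are the 5 highest and 5 lowest per line, the 5 largest differences with VCaP higher, the 3 ends with LNCaP higher and those wholly in 1 state. Arm ends, lists and rules were chosen with earlier results of these data known. On simulated data the largest error of an arm-end median was 0.05 over 39 arm ends. Alternatives are listed in the closing section. Scripts ran in Python 3.11.15 (matplotlib 3.10.9, scipy 1.17.1, pandas 2.3.3, numpy 2.4.6).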

Additional observations from a re-analysis of the deposited data

Results flagged for a closer look

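At 12 arm ends the median was below 0 in one line and above 0 in the other, and with 1 library pair per line the difference was not tested. Interior windows with opposite signs were not counted, so this number is not shown to be particular to arm ends. At 11 of the 12 arm ends LNCaP was below 0, and VCaP minus LNCaP, taken between medians, was 2.00 at 13q, 1.13 at 21q, 1.04 at 5q, 0.90 at 17q, 0.79 at 19q, 0.78 at 17p, 0.72 at 15q, 0.64 at 7q, 0.63 at 12p, 0.60 at 20p and 0.15 at 9p. At 3p VCaP was below 0, and the difference was -0.23. With each line centred on its autosomal median 14 arm ends had opposite signs, 11 of them among these 12. The 9p end was then below 0 in both lines (-0.09 in LNCaP and -0.08 in VCaP), and 2q, 9q and 18p had opposite signs only when centred.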

How the results depend on the processing

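The alternatives gave 348 values for 51 results. Of the values that answer a comparison 56 stayed close to the main value and 19 moved. Whether a value changed direction was not scored for these comparisons. In LNCaP the number of arm ends above their reference went from 24 to 19 with the zone 5 to 10 Mb from the tip as reference. That value was counted as close. The associated share moved with the definition of the state: with enrichment over 0 it was 65.4% in LNCaP and 91.0% in VCaP, where 56.7% and 66.5% of all autosomal bins were over 0, and over the autosomal median, which splits all autosomal bins evenly by construction, 59.5% in LNCaP. With ends of 2 Mb it was 44.7% in LNCaP, and with ends of 10 Mb 75.8% in VCaP. The share of bins past the noise moved under most settings, given here as VCaP higher and LNCaP higher: 52.7% and 4.00% for ends of 2 Mb, 38.5% and 3.67% for 10 Mb, 28.0% and 1.34% with the mean undone, 35.0% and 3.42% with centred lines, 32.5% and 3.97% with quantile normalization, 12.4% and 0.292% for a difference over 1, and 57.8% and 3.57% with the noise taken directly from differences, which was chosen after seeing the data. The cause was not tested, but a wider threshold leaves fewer bins by construction. For ends of 2 Mb and 10 Mb the shares of all autosomal bins remain 19.4% and 8.05%. Under the other settings the share of all autosomal bins was not computed. Those values therefore do not show whether arm ends differed from the remaining genome. VCaP was higher at 33 to 36 arm ends under all 7 alternatives run for that count. The 20 arm ends with a difference of medians past the threshold for a single bin, used here only as a size, kept their sign in 140 of 140 alternative values and stayed past it in 116. Of the other arm ends 5 changed sign in at least 1 alternative: 6p, 8p and 16q with centred or quantile-normalized lines, among others, 9p with means in place of medians (-0.02) and 18p with ends of 10 Mb (0.10). Among the alternative differences of single arm ends 263 stayed close and 10 moved. The 13q difference went from 2.00 to 0.05 with ends of 2 Mb, 0.66 with ends of 10 Mb and 1.24 with means. It was not the largest with ends of 2 Mb or 10 Mb, where 21q had 1.15 and 0.90. The deposited states could not be recomputed with the mean undone. No paired analysis was possible because there is only 1 library in each group. With the depth unknown, the noise between bins is the only limit on single bins.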
